A study of Mus musculus with 8 samples.

Results

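The constitutive proteasome was followed through the left ventricle of mouse hearts with and without dystrophin. Its genes were taken as the protein-coding genes whose symbol starts with Psma to Psmg and a number, without the interferon-inducible catalytic subunits Psmb8, Psmb9 and Psmb10. This gave 46 of the 14578 genes measured, with 148 transcripts. They are 8 genes of the alpha ring and 7 of the beta ring of the 20S core, 6 ATPases and 3 other subunits of the base of the 19S cap, 8 subunits of its lid, 5 activator genes, the regulator Psmf1 and 7 assembly chaperones. The remaining match, Psmc3ip, encodes a partner of recombinases in meiosis and is no proteasome subunit. Paired-end sequencing of total RNA gave 8 libraries of 3 genotypes, all on a C57 background and from mice 6 months of age. There were 3 libraries of mdx sln+/- mice, which carry the mdx mutation of Dmd and are heterozygous for the sarcolipin gene Sln, 3 libraries of mdx mice and 2 of wild-type (WT) mice. The mdx mutation, which both mdx groups share, stops full-length dystrophin, and how the Sln allele was made is not given in the sources used here. Whether each library is a separate animal is not stated in the labels, and p-values therefore refer to the spread among these libraries alone. Sln itself was not analysed here.

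The proteasome takes apart proteins marked with ubiquitin. In the 20S core, stacked rings of alpha subunits gate a channel, and rings of beta subunits hold the protease sites of Psmb5 (chymotrypsin-like), Psmb6 (caspase-like) and Psmb7 (trypsin-like). The 19S cap binds ubiquitin chains and unfolds the substrate with a ring of ATPases, while activators such as PA28, built from Psme1 and Psme2, bind the same ends of the core without ATPases. Interferons raise PA28 and the alternative catalytic subunits Psmb8, Psmb9 and Psmb10 in many cells. In striated muscle the proteasome is known for the turnover of contractile proteins and for muscle wasting.

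Values are log2(abundance + 1), summed over the transcripts of a gene, on a scale whose relation to transcript length is not given, so levels are compared between libraries and not between genes. Changes are differences of log2 levels with the standard error from limma, and a gene is said to have risen or fallen where its adjusted p, over all 13783 genes tested, is under 0.05. In mixed tissue, fewer cells of a type and less RNA per cell cannot be told apart. Dmd fitted the labels, at 4.09, 4.10 and 4.25 in mdx sln+/- 1, 2 and 3 and 4.30, 4.32 and 4.22 in mdx 1, 2 and 3, against 6.60 and 6.98 in WT 1 and 2. All 8 cardiomyocyte markers were measured and limma called 0 in any comparison, with 2 at an unadjusted p under 0.05 against WT in each mdx group; their summed log2 level lay between 15.55 and 15.64 in mdx sln+/-, 15.56 and 15.67 in mdx and 15.42 and 15.49 in WT. Some libraries stand apart within their group. The Y-linked gene Eif2s3y was at 3.29, 4.14 and 1.31 in mdx sln+/- 1, 2 and 3, at 5.91, 4.01 and 5.79 in mdx 1, 2 and 3, and at 6.11 and 0.92 in WT 1 and 2, so WT 2 and mdx sln+/- 3 were low. Source names with an index belong to 4 libraries, numbers 1 and 2 of both mdx groups, and the other names are plain, so all WT libraries share the plain style. A term that sets mdx 2 and mdx sln+/- 2 against the other libraries of these groups had been removed from the deposited values. It was fitted again so that residual degrees of freedom were counted rightly. After the removal the mean of these 2 libraries practically equals that of the other mdx and mdx sln+/- libraries in every transcript. Where all libraries of the mdx groups are said to lie on 1 side of WT, they are thus not independent of each other.

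The activator genes Psme1 and Psme2b and the chaperone gene Psmg4 rose in mdx against WT, and the rows of the catalytic subunit Psmb5 fell. These were 4 of the 45 genes tested, 3 higher and 1 lower. Among all genes tested 15.1% were called in this comparison, 8.15% higher and 6.94% lower, and among the proteasome genes 8.89%. Against WT, mdx sln+/- had 6 called, the same 4 with the rise of Psme2 and the beta subunit Psmb4, 13.3% of the 45 against a background of 15.9%, 9.41% higher and 6.5% lower. Both comparisons use the same WT libraries. Between mdx sln+/- and mdx 0 of 45 were called, with a background of 0%. Psma8, an alpha subunit of the testis, lay between 0.40 and 0.94 in all libraries and was too low to test.

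These counts rest on few libraries. The fitted term marks mdx 2 and mdx sln+/- 2 alone, so leaving out either takes the other out of the estimates as well. Here and below, the fits without mdx 2 and without mdx sln+/- 2 thus rest on the same libraries and are 1 check. In mdx against WT the count was 2 without WT 1, 1 without WT 2, 2 without mdx 1 and 2 without mdx sln+/- 1. In mdx sln+/- against WT it was 0 without mdx sln+/- 1 and 2 without WT 2, without mdx 2, without mdx sln+/- 2 or without mdx sln+/- 3. Without the libraries of low Y-linked level, or with the plain-named libraries alone, it was 0 in both comparisons. In the fit without the removed term, whose residual degrees of freedom are 5 although only 4 remain, the counts were 10 in mdx against WT (background 27.6%) and 16 in mdx sln+/- against WT (background 29%).

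**Figure D1:**
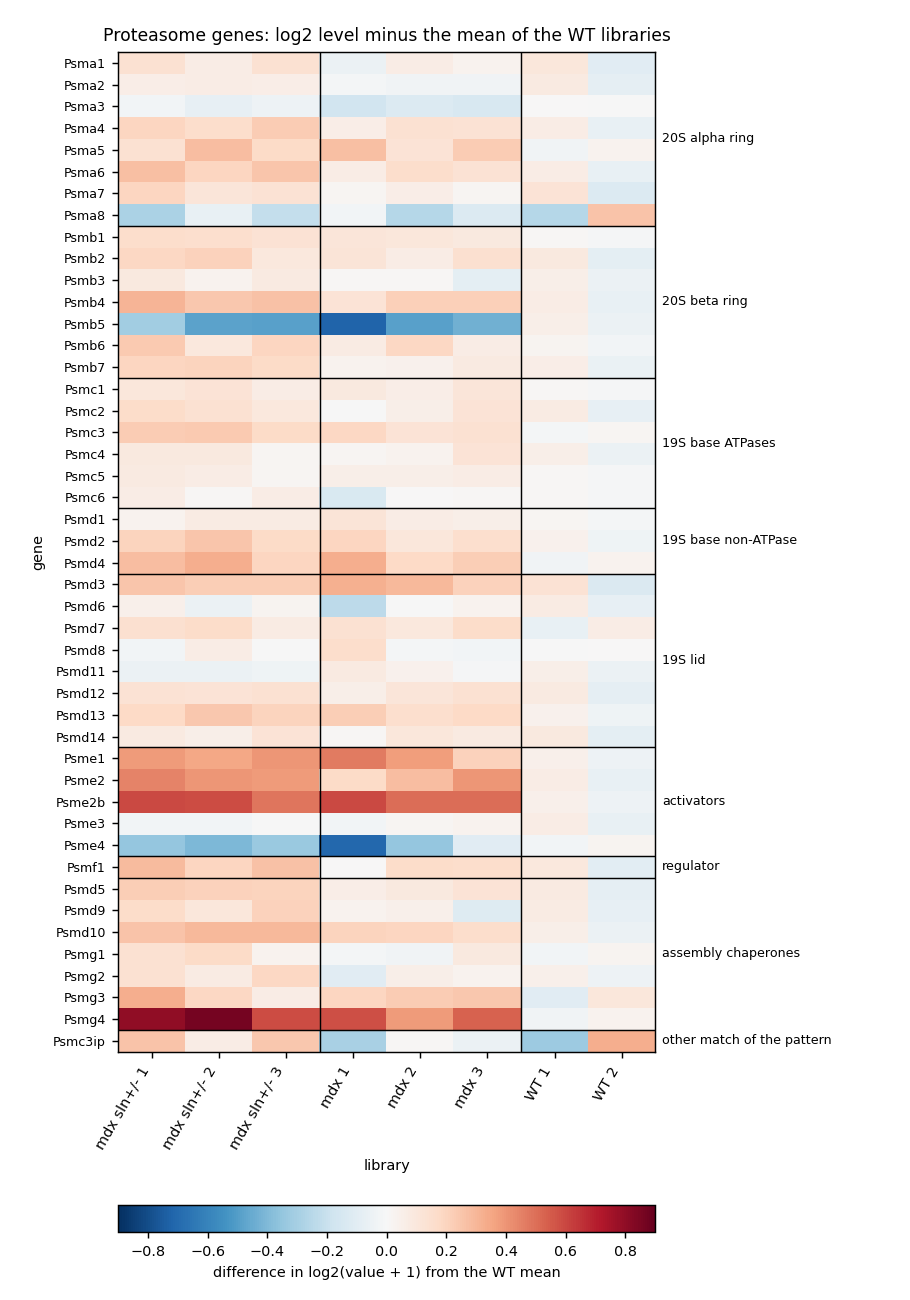
Each row is a gene, grouped by class, and each column a library (mdx sln+/-, mdx, then WT); colour gives the log2 level minus the mean of the WT libraries. Psme1, Psme2, Psme2b and Psmg4 are red in all 6 libraries of the mdx groups and Psmb5 is blue in all 6, while most rows of the 20S core and the 19S cap are pale.

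The genes of PA28 rose in both mdx groups against WT, as single rows for Psme1 and Psme2b and as a sum for Psme2 with Psme2b. Psme2 and Psme2b both encode a PA28 beta chain by annotation. Psme2 lies at chr14:55587441-55591113 on the minus strand and Psme2b at chr11:48945354-48946190 on the minus strand (GRCm38, GENCODE M21), within the annotated spans of Gm12185 and 9930111J21Rik1 on the same strand. The transcripts Psme2b-201 and Psme2-208 were 99.4% identical over 794 bases, with 5 mismatches. The lines below show 90 bases of each GENCODE M21 transcript, from the coding sequence of Psme2b, with the 3 bases that differ in capitals. Reads of this stretch can be told apart only where they cover a capital.
Psme2b-201: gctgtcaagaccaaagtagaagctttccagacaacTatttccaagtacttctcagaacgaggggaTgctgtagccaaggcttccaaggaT
Psme2-208: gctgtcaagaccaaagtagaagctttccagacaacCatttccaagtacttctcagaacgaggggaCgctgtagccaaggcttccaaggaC

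Psme2b had log2 levels of 5.32, 5.31 and 5.21 in mdx sln+/- 1, 2 and 3 and 5.32, 5.23 and 5.23 in mdx 1, 2 and 3, against 4.77 and 4.68 in WT 1 and 2. Every library of both mdx groups was above both WT libraries. It rose by 0.54 ± 0.08 in mdx against WT, 1.45-fold (limma, adjusted p = 0.00812), and by 0.56 ± 0.08 in mdx sln+/- against WT (adjusted p = 0.00725). The overlapping gene 9930111J21Rik1 was at 2.27, 2.44 and 2.10 in mdx sln+/- and 2.16, 2.01 and 2.37 in mdx, against 2.34 and 2.12 in WT, so its groups overlapped. The call in mdx sln+/- against WT was lost without mdx sln+/- 1 (adjusted p = 0.056) and, over all alternatives, its adjusted p ranged from 0.00119 to 0.149.

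Psme2 itself was listed at 2.85, 2.80 and 2.79 in mdx sln+/- 1, 2 and 3 and 2.58, 2.68 and 2.80 in mdx 1, 2 and 3, against 2.47 and 2.34 in WT 1 and 2. Again both mdx groups lay above WT. The difference was 0.28 ± 0.11 in mdx against WT, which did not pass (limma, adjusted p = 0.118), and Psme2 rose by 0.41 ± 0.11 in mdx sln+/- against WT (adjusted p = 0.0429). The second call was lost when any of WT 1, WT 2, mdx 2 or the 3 mdx sln+/- libraries was left out, with adjusted p up to 0.194 (without mdx sln+/- 1). In the Psme2 transcript with the highest mean alone the difference of mdx from WT was -0.10. How reads were divided between Psme2 and Psme2b is not given, so their separate values are uncertain. Summed, they stood at 5.53, 5.51 and 5.42 in mdx sln+/- 1, 2 and 3 and 5.49, 5.42 and 5.44 in mdx 1, 2 and 3, against 4.99 and 4.89 in WT 1 and 2, with no overlap. The sum rose by 0.51 ± 0.07 in mdx against WT (95% interval 0.34 to 0.69, limma, adjusted p = 0.00813) and by 0.55 ± 0.07 in mdx sln+/- against WT (0.37 to 0.72, adjusted p = 0.00674). With each library left out in turn its adjusted p stayed between 0.0159 and 0.0454 in mdx against WT and between 0.00959 and 0.0541 in mdx sln+/- against WT.

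Psme1 (chr14:55578123-55581529, plus strand), which encodes the PA28 alpha chain and overlaps Emc9 on the other strand, was at 5.98, 5.94 and 5.99 in mdx sln+/- 1, 2 and 3 and 6.06, 5.97 and 5.80 in mdx 1, 2 and 3, against 5.64 and 5.55 in WT 1 and 2. All mdx and mdx sln+/- libraries were above WT. Psme1 rose by 0.35 ± 0.09 in mdx against WT, 1.27-fold (limma, adjusted p = 0.0458), and by 0.37 ± 0.09 in mdx sln+/- against WT (adjusted p = 0.0374). Both calls were close to the threshold. Both were lost with median-ratio scaling (limma, adjusted p = 0.0633 in mdx and 0.0696 in mdx sln+/-). They were also lost with upper-quartile scaling and with a prior without the trend. The call in mdx was lost when any library but mdx 3 was left out, with adjusted p up to 0.177 (without WT 2). The call in mdx sln+/- was lost without WT 1, WT 2, mdx 2 or any mdx sln+/- library, with adjusted p up to 0.154 (without mdx sln+/- 1). The Psme1 transcript with the highest mean differed by only 0.11 between mdx and WT (adjusted p = 0.657).

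The other activators were not called. Psme3, which forms PA28 gamma in the nucleus, was at 5.52, 5.52 and 5.54 in mdx sln+/- 1, 2 and 3 and 5.52, 5.56 and 5.58 in mdx 1, 2 and 3, against 5.61 and 5.48 in WT 1 and 2. The groups overlapped and the difference of mdx from WT was 0.01 (95% interval -0.15 to 0.18). Psme4, the large activator PA200, was at 7.71, 7.65 and 7.72 in mdx sln+/- 1, 2 and 3 and 7.35, 7.71 and 7.95 in mdx 1, 2 and 3, against 8.03 and 8.08 in WT 1 and 2. All 6 libraries of the mdx groups lay below WT, but mdx 1 was far below mdx 3, and neither difference passed, at -0.38 ± 0.16 in mdx (limma, adjusted p = 0.154) and -0.36 in mdx sln+/- (adjusted p = 0.166).

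**Figure D2:**
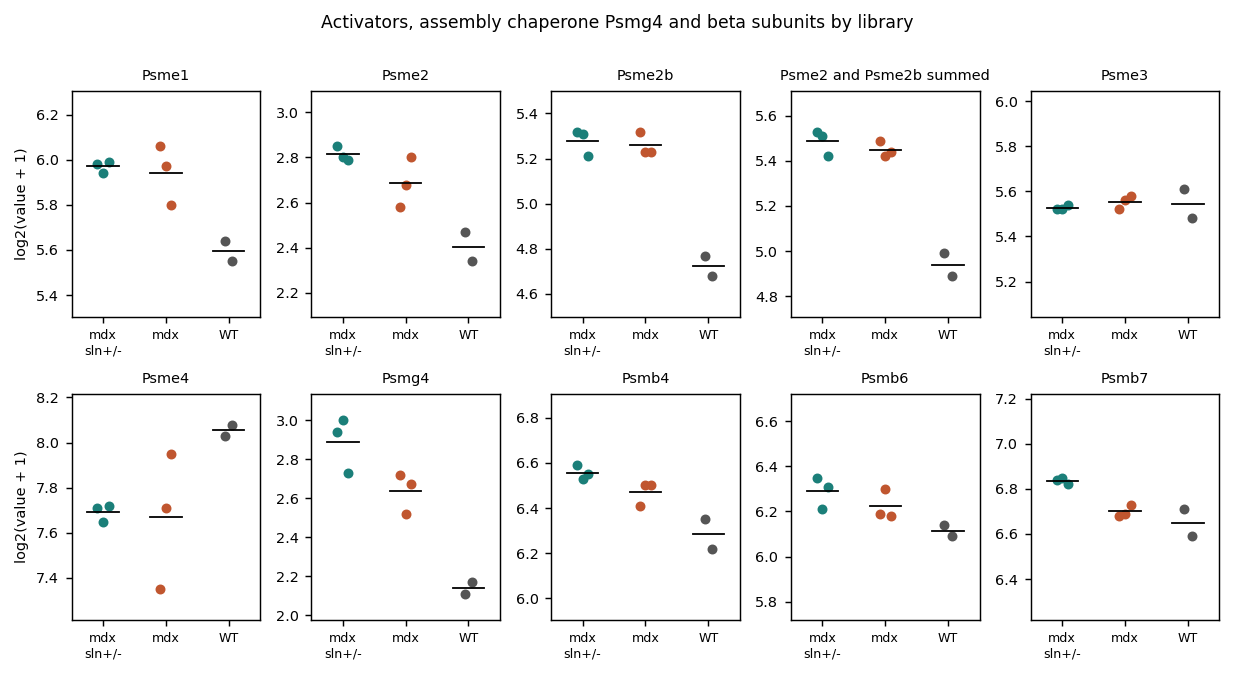
The log2 levels of the activator genes are drawn as 1 point a library for mdx sln+/-, mdx and WT, with bars at the group means, beside Psmg4, Psmb4, Psmb6 and Psmb7. For Psme1, Psme2 and Psme2b every mdx and mdx sln+/- library is above both WT libraries, for Psme3 the groups overlap and for Psme4 they are below WT.

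The summed levels of the macrophage and of the interferon-induced genes were higher in both mdx groups than in WT, as Psme1 and Psme2 were. The same held for the sums of the cardiomyocyte, the endothelial and the smooth muscle and pericyte markers. Of the 13 macrophage and myeloid genes, all measured, 4 rose in mdx against WT and 3 in mdx sln+/- against WT; their summed log2 level ran from 8.44 to 8.69 in mdx sln+/- and 8.41 to 8.78 in mdx, against 8.02 to 8.03 in WT. Of the 10 interferon-induced genes 7 rose in mdx against WT and 6 in mdx sln+/- against WT, with sums of 8.19 to 8.72 in mdx sln+/-, 8.12 to 9.08 in mdx and 7.24 to 7.26 in WT. Over all genes, 8.15% rose in mdx against WT and 9.41% in mdx sln+/- against WT. Of the 4 endothelial and the 5 fibroblast markers 1 each rose in both comparisons with WT, and of the 5 smooth muscle and pericyte markers limma called 0 in any, with 1 at an unadjusted p under 0.05 against WT in each mdx group and median differences from WT of -0.47 in mdx sln+/- and 0.03 in mdx. Of 3 atrial markers Nppa alone was measured, which encodes the natriuretic peptide of the atria and is also known to rise in stressed ventricle. Nppa was at 8.92, 9.36 and 8.88 in mdx sln+/- 1, 2 and 3 and 9.43, 8.95 and 9.39 in mdx 1, 2 and 3, against 8.52 and 7.76 in WT 1 and 2, so that all libraries of the mdx groups were above WT. It rose by 1.12 ± 0.27 in mdx against WT (limma, adjusted p = 0.0361), a call lost without WT 2, mdx 1, mdx 3 or mdx sln+/- 1, and its difference of 0.91 in mdx sln+/- did not pass (adjusted p = 0.0615), though it did without WT 1 (1.29, adjusted p = 0.0342). Of 9 lymphocyte markers only Cd4 was in the table, below the filter. The part of these cells, of atrial tissue and of interferon in the rise of Psme1, Psme2 and Psme2b was not tested.

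In the 20S core no gene of the alpha ring was called. Over its 7 tested genes the difference of mdx from WT ran from -0.15 (Psma3) to 0.20 (Psma5) with a median of 0.04, and limma called 0, with 0 at an unadjusted p under 0.05. Psma5, the member with the smallest p, was at 4.01, 4.15 and 4.04 in mdx sln+/- 1, 2 and 3 and 4.14, 3.99 and 4.10 in mdx 1, 2 and 3, against 3.84 and 3.90 in WT 1 and 2. All mdx libraries were above WT, by 0.20 on average (limma, adjusted p = 0.167). For mdx sln+/- against WT the alpha ring ran from -0.05 to 0.24 with a median of 0.15, again with 0 called and 2 at an unadjusted p under 0.05.

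In the beta ring the rows of Psmb5 fell. Psmb5 (chr14:54614119-54618022, minus strand, with Mir686 inside it) was at 5.24, 5.07 and 5.06 in mdx sln+/- 1, 2 and 3 and 4.83, 5.06 and 5.12 in mdx 1, 2 and 3, against 5.60 and 5.50 in WT 1 and 2, without overlap. It fell by 0.55 ± 0.11 in mdx against WT (95% interval -0.81 to -0.29, limma, adjusted p = 0.0213) and by 0.43 ± 0.11 in mdx sln+/- against WT (adjusted p = 0.043). Against WT in mdx the call was lost without WT 1 (adjusted p = 0.0763) or WT 2 (adjusted p = 0.0742). The call in mdx sln+/- against WT was lost without either WT library, without mdx 2 or without any mdx sln+/- library, with adjusted p up to 0.149.

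A pseudogene that is almost the same sequence moved the other way. Gm3375, a processed pseudogene at chr7:3181093-3181888 on the plus strand, was 98.9% identical to the Psmb5 transcript over 796 bases, with 8 mismatches and 1 gap base. The next lines show 90 bases of each transcript, from the coding sequence of Psmb5, with the 3 differing bases in capitals.
Psmb5-201: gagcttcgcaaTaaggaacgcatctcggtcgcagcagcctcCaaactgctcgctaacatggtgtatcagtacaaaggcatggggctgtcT
Gm3375-201: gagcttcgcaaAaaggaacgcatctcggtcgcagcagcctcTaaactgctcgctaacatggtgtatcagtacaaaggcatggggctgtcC

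Gm3375 was listed at 5.56, 5.73 and 5.76 in mdx sln+/- 1, 2 and 3 and 5.87, 5.68 and 5.63 in mdx 1, 2 and 3, against 5.11 and 5.03 in WT 1 and 2. It rose by 0.65 ± 0.11 in mdx against WT (limma, adjusted p = 0.0114) and by 0.61 ± 0.11 in mdx sln+/- against WT (adjusted p = 0.0127). Of the linear abundance of both, Psmb5 held 44.3%, 38.5% and 37.9% in mdx sln+/- 1, 2 and 3 and 32.3%, 39.1% and 41.1% in mdx 1, 2 and 3, against 58.6% and 58.4% in WT 1 and 2. The sum hardly differed between libraries, at 6.39, 6.42 and 6.44 in mdx sln+/- 1, 2 and 3 and 6.43, 6.38 and 6.38 in mdx 1, 2 and 3, against 6.36 and 6.27 in WT 1 and 2. It was 0.08 ± 0.07 higher in mdx than in WT (95% interval -0.07 to 0.24, limma, adjusted p = 0.409) and 0.11 ± 0.07 higher in mdx sln+/- (-0.05 to 0.26, adjusted p = 0.293). The fall of Psmb5 is thus uncertain, and the summed value did not pass in either direction.

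Near-identical copies are common among these genes. A transcript of another gene with at least 90% identity was found for 16 of the 46, and for 15 of them the copy is in the table. The share listed for the gene itself varied less between libraries elsewhere, from 78.2% to 81% for Psma2, from 86.1% to 87.8% for Psmb6 and from 80.6% to 83.3% for Psme1. For Psma3 it was 17% to 18.4%, most of the rest standing on Gm13835 (chr6:31141979-31142663, minus strand), which is 100% identical to Psma3 over 665 bases. With copies summed, 3 of 44 genes were called in mdx against WT, all higher (Psme1, the Psme2 sum and Psmg4; background 15.1%, 8.12% higher and 6.93% lower). Against WT, mdx sln+/- had 4 called, all higher (the same 3 and Psmb4; background 15.9%, 9.4% higher and 6.5% lower), and between mdx sln+/- and mdx 0. Leaving out single libraries took the adjusted p of Psme1 with its copy up to 0.154 in mdx against WT and 0.149 in mdx sln+/- against WT.

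**Figure D3:**
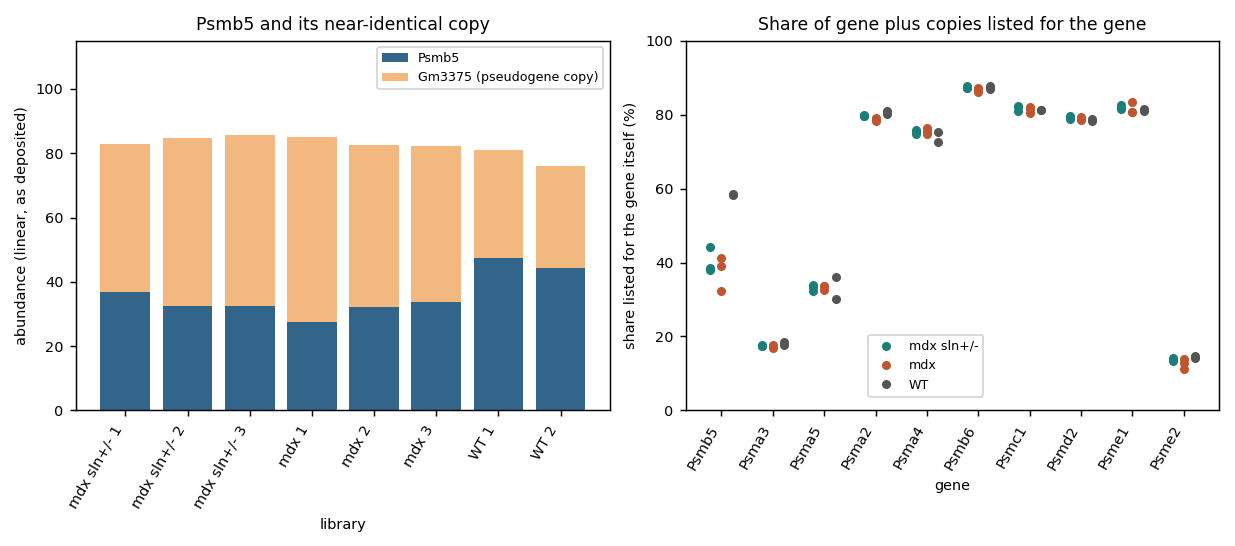
The left panel stacks the linear abundance of Psmb5 and its copy Gm3375 in each library, and the right panel gives the percent listed for the gene itself, 1 point a library, for 10 genes with copies. The bars of the 8 libraries are of like height while the Psmb5 part is 32.3% to 44.3% in the mdx groups and 58.6% and 58.4% in WT.

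The other catalytic subunits were not called. Psmb6 was at 6.35, 6.21 and 6.31 in mdx sln+/- 1, 2 and 3 and 6.19, 6.30 and 6.18 in mdx 1, 2 and 3, against 6.14 and 6.09 in WT 1 and 2. All 6 were above WT by little, 0.11 ± 0.08 in mdx (limma, adjusted p = 0.371) and 0.17 in mdx sln+/- (adjusted p = 0.166). Psmb7 was at 6.84, 6.85 and 6.82 in mdx sln+/- 1, 2 and 3 and 6.68, 6.69 and 6.73 in mdx 1, 2 and 3, against 6.71 and 6.59 in WT 1 and 2. The mdx libraries overlapped WT (difference 0.05, adjusted p = 0.644), and the mdx sln+/- libraries were above all others.

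Psmb4, a beta subunit without a protease site, was at 6.59, 6.53 and 6.55 in mdx sln+/- 1, 2 and 3 and 6.41, 6.50 and 6.50 in mdx 1, 2 and 3, against 6.35 and 6.22 in WT 1 and 2. The 3 groups did not overlap, with mdx between. It rose by 0.27 ± 0.07 in mdx sln+/- against WT (limma, adjusted p = 0.0451) and differed by 0.18 in mdx against WT (adjusted p = 0.127). The call was lost with median-ratio or upper-quartile scaling, a replicate block or a prior without the trend (limma, adjusted p = 0.0658, 0.0577, 0.0553 and 0.0716). Among single transcripts the coding Psmb4-201 did not pass in mdx sln+/- against WT (0.25, limma, adjusted p = 0.161). Nor did the retained-intron Psmb4-202, listed higher in every library (0.28, adjusted p = 0.0642). Left without WT 2, mdx 2, mdx 3 or any mdx sln+/- library the call was lost, with adjusted p up to 0.212 (without mdx sln+/- 1).

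None of the Psm genes of the 19S cap was called in any comparison (limma); Sem1, a lid subunit whose symbol falls outside the pattern, is given with the related genes. At an unadjusted p under 0.05, mdx against WT gave 1 of the 6 ATPases, 1 of the 3 other base subunits and 2 of the 8 lid subunits. The 6 ATPases differed between mdx and WT by -0.05 to 0.15, the 3 other base subunits by 0.07 to 0.24 and the 8 lid subunits by -0.07 to 0.27. Psmc3, an ATPase of the base, was at 7.12, 7.13 and 7.07 in mdx sln+/- 1, 2 and 3 and 7.08, 7.02 and 7.03 in mdx 1, 2 and 3, against 6.88 and 6.91 in WT 1 and 2. Every mdx library was above WT, by 0.15 in mdx (limma, adjusted p = 0.145) and 0.21 in mdx sln+/- (adjusted p = 0.0573). Psmd4, the ubiquitin receptor of the base, was at 6.15, 6.20 and 6.06 in mdx sln+/- 1, 2 and 3 and 6.20, 6.05 and 6.09 in mdx 1, 2 and 3, against 5.84 and 5.90 in WT 1 and 2, a difference of 0.24 in mdx (adjusted p = 0.0872). Psmd3, a scaffold subunit of the lid, was at 6.70, 6.67 and 6.67 in mdx sln+/- 1, 2 and 3 and 6.77, 6.74 and 6.66 in mdx 1, 2 and 3, against 6.58 and 6.32 in WT 1 and 2, a difference of 0.27 (adjusted p = 0.0825). For each of these 3 genes all libraries of the mdx groups were above both WT libraries.

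For 30 of the 31 tested core and cap genes the 95% interval of the difference of mdx from WT lay within 0.5 on either side of 0, and the same held for 30 in mdx sln+/- against WT and for 31 in mdx sln+/- against mdx. Psmb5 was the exception in both comparisons with WT. Among all 13783 genes tested, 7543, 7399 and 11148 had such intervals in the same comparisons. Summed over the ATPases the linear value was 480, 477 and 465 in mdx sln+/- 1, 2 and 3 and 454, 456 and 468 in mdx 1, 2 and 3, against 442 and 431 in WT 1 and 2. All 6 sums of the mdx groups were above both WT sums. The other classes did not all show this order. The alpha ring summed to 387, 374 and 384 in mdx sln+/- 1, 2 and 3 and 348, 363 and 358 in mdx 1, 2 and 3, against 363 and 325 in WT 1 and 2. The beta ring summed to 515, 499 and 498 in mdx sln+/- 1, 2 and 3 and 466, 480 and 479 in mdx 1, 2 and 3, against 476 and 445 in WT 1 and 2. For both rings mdx sln+/- was above WT, while mdx overlapped WT. The beta-ring sum holds the row of Psmb5 without its copy Gm3375. That row had linear values of 27.5, 32.3 and 33.8 in mdx 1, 2 and 3, against 47.5 and 44.4 in WT 1 and 2. The overlap of mdx with WT in the beta ring is thus as uncertain as the fall of Psmb5. The activators summed to 360, 350 and 360 in mdx sln+/- 1, 2 and 3 and 317, 359 and 391 in mdx 1, 2 and 3, against 388 and 387 in WT 1 and 2. By this sum mdx sln+/- was below WT and mdx overlapped it. Psme4, which was not called, weighs most in it, at mean log2 levels of 7.69 in mdx sln+/-, 7.67 in mdx and 8.06 in WT. Psme1, Psme2 and Psme2b were above WT in all libraries of the mdx groups. The lid, the other base subunits and the chaperones were above both WT sums in all libraries of the mdx groups, and no class sum was tested.

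Among the chaperones Psmg4 rose. Psmg4 (chr13:34162964-34178173, plus strand) encodes a chaperone that works with Psmg3 in building the alpha ring, and it overlaps no other gene. It was at 2.94, 3.00 and 2.73 in mdx sln+/- 1, 2 and 3 and 2.72, 2.52 and 2.67 in mdx 1, 2 and 3, against 2.11 and 2.17 in WT 1 and 2. The groups stood in the order mdx sln+/-, mdx, WT with no overlap. Psmg4 rose by 0.50 ± 0.12 in mdx against WT, 1.41-fold (limma, adjusted p = 0.0387), and by 0.75 ± 0.12 in mdx sln+/- against WT, 1.68-fold (95% interval 0.46 to 1.04, adjusted p = 0.0114). In mdx against WT the call was lost without WT 1, WT 2, mdx 1, mdx 3 or mdx sln+/- 1, with adjusted p up to 0.115 (without mdx 1), and in mdx sln+/- against WT without mdx sln+/- 1 (adjusted p = 0.0731).

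The rise was seen in 1 of its transcripts. Psmg4-202 was at 2.43, 2.49 and 2.25 in mdx sln+/- 1, 2 and 3 and 2.40, 2.11 and 2.14 in mdx 1, 2 and 3, against 0.92 and 1.42 in WT 1 and 2, a rise of 1.04 ± 0.20 in mdx against WT in a fit over 29021 transcripts (limma, adjusted p = 0.0236). Psmg4-201 was at 1.72, 1.74 and 1.52 in mdx sln+/- and 1.21, 1.26 and 1.56 in mdx, against 1.78 and 1.50 in WT, where groups overlapped. The other 6 chaperones differed between mdx and WT by -0.01 to 0.22 with 0 called. Psmf1, an inhibitor of the core in the test tube, differed by 0.11 (adjusted p = 0.481), and Psmc3ip by -0.11 (adjusted p = 0.754).

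**Figure D4:**
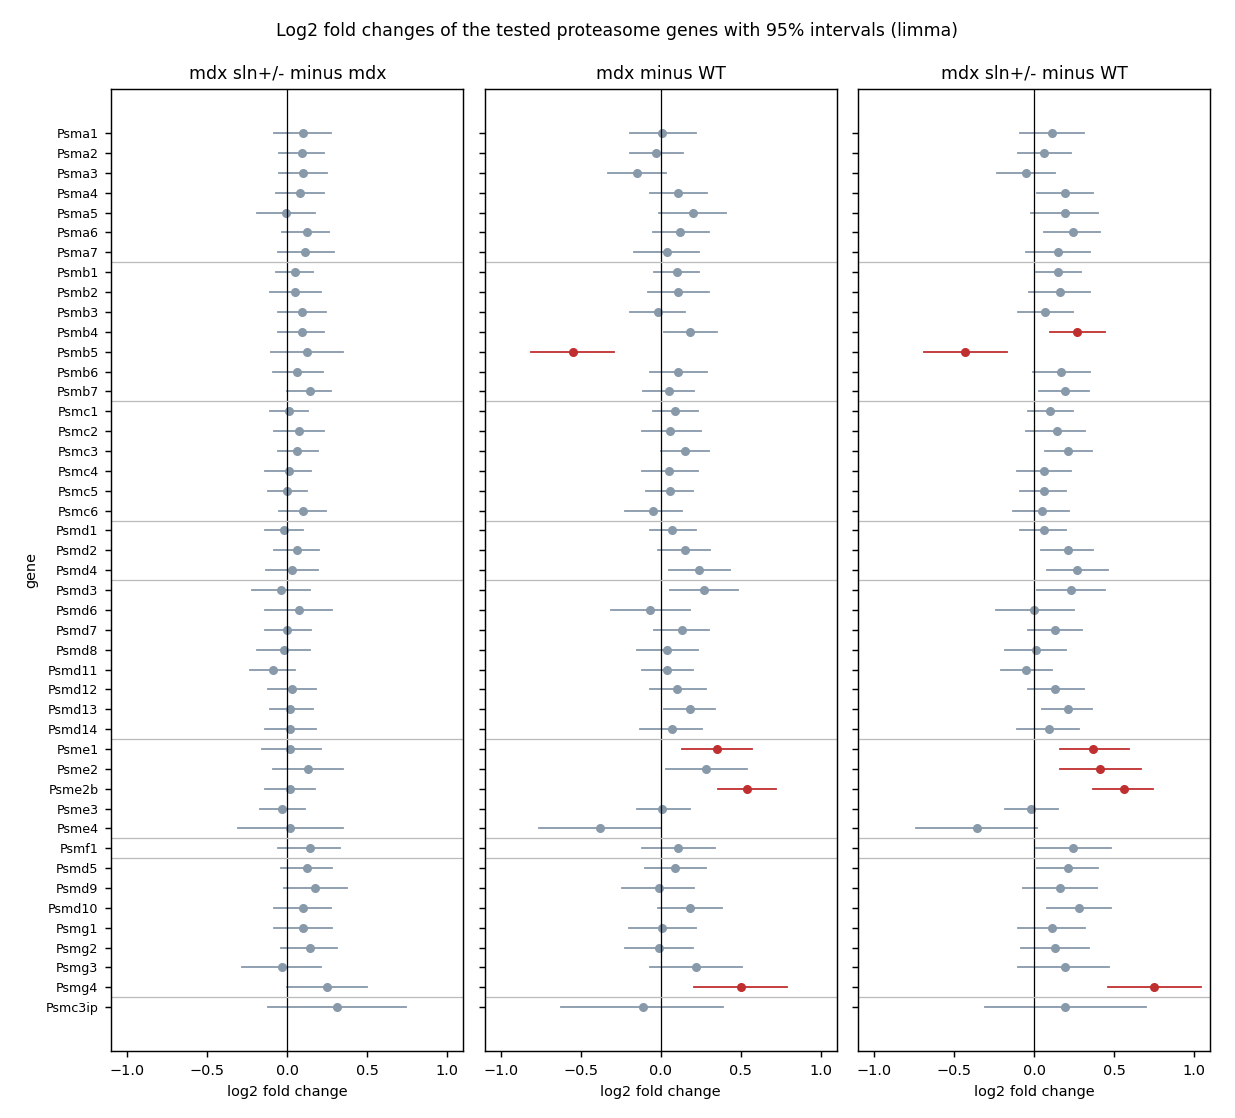
Each point is the log2 difference of a gene with its 95% interval, for mdx sln+/- against mdx, mdx against WT and mdx sln+/- against WT; red marks an adjusted p under 0.05. No point is red in mdx sln+/- against mdx, 4 are red in mdx against WT and 6 in mdx sln+/- against WT.

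Against mdx, no proteasome gene was called in mdx sln+/-. The smallest adjusted p of the 45 was 0.578, and 2 genes, Psmb7 and Psmg4, had an unadjusted p under 0.05; among all 13783 genes limma called 0, with 1186 at an unadjusted p under 0.05, and the fit without the removed term called 0 as well. Psmb7 was 0.14 ± 0.06 higher and Psmg4 0.25 ± 0.11 higher. For 43 of the 45 the 95% interval lay within 0.5 of 0, as it did for 11148 of all 13783 genes. The groups did not overlap for 16 genes that were higher and 1 that was lower in mdx sln+/- (background 24.8%, 16.8% higher and 8% lower).

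Small differences pointed the same way in most genes. Of the 45, 37 were higher in mdx sln+/- than in mdx (82.2%, median 0.06), where 60.3% of all genes were (median 0.03). In mdx against WT 35 were higher (77.8%, median 0.09, all genes 53.1% and 0.02), and in mdx sln+/- against WT 40 were (88.9%, median 0.15, all genes 57.8% and 0.05). With median-ratio scaling the medians were 0.03, 0.07 and 0.09 for the same comparisons. The median deviation of the 45 genes from their means over all libraries was 0.08, 0.05 and 0.05 in mdx sln+/- 1, 2 and 3 and -0.02, 0.00 and 0.02 in mdx 1, 2 and 3, against -0.04 and -0.13 in WT 1 and 2, so WT 2 stood lowest. Without WT 2 the median of mdx against WT was 0.04, with 29 of 45 above 0. The groups did not overlap for 20 higher and 3 lower genes in mdx against WT (background 51.4%, 27.8% higher and 23.6% lower) and for 29 higher and 3 lower in mdx sln+/- against WT (background 59.8%, 36.4% higher and 23.5% lower).

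The inducible catalytic subunits, which replace Psmb5, Psmb6 and Psmb7 in the immunoproteasome, rose by 0.95 to 1.56 in mdx against WT, where the highest difference of a constitutive gene was 0.54. Psmb8 was at 3.94, 4.07 and 3.89 in mdx sln+/- 1, 2 and 3 and 4.57, 3.98 and 3.67 in mdx 1, 2 and 3, against 2.76 and 2.62 in WT 1 and 2, a rise of 1.38 ± 0.25 in mdx against WT (limma, adjusted p = 0.015). Psmb10 rose by 0.95 ± 0.21 (adjusted p = 0.028) and Psmb9, which overlaps Tap1, by 1.56 ± 0.31 (adjusted p = 0.0196). All 3 rose in mdx sln+/- against WT too, by 1.27, 1.57 and 0.85 for Psmb8, Psmb9 and Psmb10. Without WT 2 none of these calls held in either comparison. Those of Psmb9 and Psmb10 in mdx against WT were also lost without WT 1, and that of Psmb10 without mdx sln+/- 1. Against WT in mdx sln+/- all 3 were lost without WT 1, mdx sln+/- 1 or mdx sln+/- 3, and that of Psmb10 also without mdx 2 or mdx sln+/- 2, with adjusted p from 0.0502 to 0.146 over these. The log2 ratio of Psmb8 to the sum of Psmb5 and Gm3375 was -2.53, -2.43 and -2.63 in mdx sln+/- 1, 2 and 3 and -1.90, -2.48 and -2.80 in mdx 1, 2 and 3, against -3.81 and -3.88 in WT 1 and 2. The ratio was above WT in all 6 libraries of the mdx groups.

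Of 11 measured genes of other proteasome parts and assembly, 2 were called in mdx against WT (18.2%, against 15.1% of all genes) and 1 in mdx sln+/- against WT (9.09%, against 15.9%). Sem1, a small lid subunit, rose and Zfand5, a zinc finger protein that binds the proteasome and stimulates it, fell in mdx against WT. Sem1 was at 6.49, 6.40 and 6.50 in mdx sln+/- 1, 2 and 3 and 6.23, 6.42 and 6.43 in mdx 1, 2 and 3, against 5.96 and 6.03 in WT 1 and 2 (0.37 ± 0.09, limma, adjusted p = 0.0331). It rose in mdx sln+/- against WT by 0.47 (adjusted p = 0.0157), a call lost without WT 1, WT 2, mdx sln+/- 1 or mdx sln+/- 3, and in mdx against WT the call was lost when any library but mdx 1 was left out. Zfand5 was at 6.59, 6.70 and 6.67 in mdx sln+/- 1, 2 and 3 and 6.36, 6.41 and 6.60 in mdx 1, 2 and 3, against 6.85 and 6.89 in WT 1 and 2, a fall by 0.41 ± 0.09 in mdx (adjusted p = 0.027) that was lost without WT 1, WT 2, mdx 1, mdx sln+/- 1 or mdx sln+/- 3. Its difference of -0.22 in mdx sln+/- did not pass.

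Of 10 genes of proteasome gene activation, 2 fell in mdx against WT (20%, against 15.1% of all genes called) and 3 were called in mdx sln+/- against WT (30%, against 15.9%), shares of a short list that are given as counts alone. Nfe2l1, the factor that raises proteasome genes when the proteasome is blocked, differed by 0.11 (limma, adjusted p = 0.462). Nfe2l2, which encodes the antioxidant factor NRF2, was at 5.51, 5.46 and 5.33 in mdx sln+/- 1, 2 and 3 and 5.38, 5.33 and 5.38 in mdx 1, 2 and 3, against 5.82 and 5.98 in WT 1 and 2, a fall by 0.54 ± 0.09 in mdx (adjusted p = 0.0115). Mafg, a small Maf partner of both factors whose span overlaps Sirt7, was at 5.07, 5.06 and 4.94 in mdx sln+/- 1, 2 and 3 and 5.05, 4.96 and 4.98 in mdx 1, 2 and 3, against 5.42 and 5.51 in WT 1 and 2, a fall by 0.46 ± 0.08 (adjusted p = 0.0126). Both lay below WT in every library of the mdx groups, and both calls were lost without WT 2 (adjusted p = 0.0592 for Nfe2l2 and 0.0629 for Mafg). The same 2 fell in mdx sln+/- against WT, by 0.46 and 0.44, calls lost without WT 2, mdx sln+/- 1 or mdx sln+/- 3. There Vcp, the segregase that hands substrates to the proteasome, rose by 0.31 (adjusted p = 0.0433), a call lost without WT 2, mdx 2, mdx 3 or any mdx sln+/- library. Of 11 ubiquitin and shuttle genes limma called 0 in any comparison, with 1 at an unadjusted p under 0.05 in mdx against WT.

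**Figure D5:**
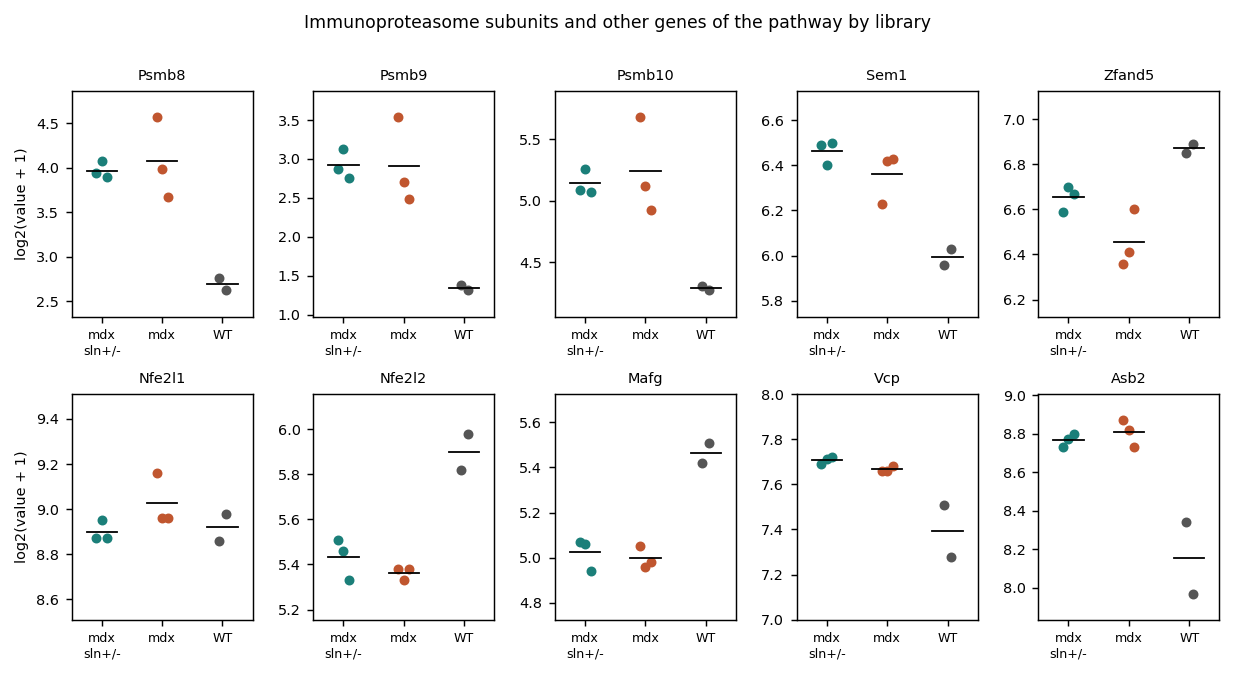
Log2 levels by library, 1 point each, of the immunoproteasome subunits and of related genes for mdx sln+/-, mdx and WT, with bars at the group means. Psmb8, Psmb9 and Psmb10 are above WT in all libraries of the mdx groups, and Nfe2l2 and Mafg are below it.

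None of the 3 motifs searched was in most of the promoters. RefSeq windows (GRCm38.p6, 250 bases before to 50 after the start) were matched for 38 of the 46 genes. The antioxidant response core TGACNNNGC, searched on both strands, was in 6 of the 41 windows of these genes (14.6%), those of Psmb5, Psmb6, Psmc6, Psmd12, Psmd9 and Psme4, against 12.4% of all 32851 windows and 14.3% of the 12309 windows of measured coding genes. CCAAT, also on both strands, was in 13 of the 41 (31.7%, all windows 37.4%, measured coding genes 37.2%). GAAANNGAA, the letters of an interferon-type element chosen after values were seen and searched on both strands, was in 7 of the 41 (17.1%, all windows 8.56%, measured coding genes 7.17%). These were the windows of Psmb3, Psmb4, Psmc2, Psmd4, Psmd9, Psme1 and Psmg4. Psme2 and Psme2b are not among them, for want of a match or of a window. Whether the motif acts in any of these genes was not tested. Matches of the 3 motifs were counted apart, whether or not they overlapped.

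Among single transcripts 5 of the 143 tested were called in mdx against WT, 3 higher and 2 lower (3.5%, background 8.29%), and 8 in mdx sln+/- against WT (5.59%, background 10.1%). Psmd1-204, a transcript of the base scaffold gene Psmd1 annotated as a target of nonsense-mediated decay, was at 1.73, 1.59 and 1.77 in mdx sln+/- 1, 2 and 3 and 1.54, 1.54 and 1.20 in mdx 1, 2 and 3, against 2.70 and 2.38 in WT 1 and 2. It fell by 1.11 ± 0.18 in mdx against WT (limma, adjusted p = 0.0154), while Psmd1 as a whole differed by 0.07. Psmd4-202, a coding transcript of the ubiquitin receptor, was at 4.49, 4.44 and 4.45 in mdx sln+/- 1, 2 and 3 and 4.58, 4.47 and 4.30 in mdx 1, 2 and 3, against 4.04 and 3.72 in WT 1 and 2, a rise of 0.58 ± 0.13 (adjusted p = 0.0412). For both transcripts all libraries of the mdx groups lay on 1 side of WT; leaving out libraries was not run for single transcripts.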

How the data were processed

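Total RNA of the left ventricle was sequenced in 8 libraries, grouped by the genotype in the labels. The submitters' processing notes name STAR 2.6.1, Partek, limma and the build mm10. The authors deposited log2 values of 33027 transcripts, in an r1 and an r2 column per library (16 in all, per the file headers). Their scale, log2(normalized abundance + 1), is inferred here from the range of values. Without counts the depth and its precision are unknown; linear values sum to 780262 to 924253 a library. The meaning of r1 and r2 is not given in the sources used here; they correlated at 0.981 to 0.987 and were averaged to 1 replicate, with 0 unmapped columns.

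Averages were turned back to linear values (pseudocount 1), added up per gene and turned into log2(value + 1); changes of low genes come out too small on it. The test took 13783 genes that reached a value of 1 in 2 or more libraries and left out 795. The fit, in limma 3.58.1 (R 4.3.3) with a prior that follows mean level, held the group and a term for mdx 2 and mdx sln+/- 2, over all 8 libraries (4 residual degrees of freedom), with Benjamini-Hochberg adjustment over all genes at 0.05. It was tested on simulated data first. In every transcript the mean of these 2 libraries equals that of the other mdx and mdx sln+/- libraries within 5.12e-05. Near-identical copies were found with blastn 2.17.0 in GENCODE M21 transcripts, at 90% identity over 80% of the shorter transcript and at least 200 bases. Tables and figures used Python 3.11.15, numpy 2.4.6, pandas 2.3.3 and matplotlib 3.10.9.

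The members, related lists and markers were chosen with earlier results of these data known. Copy sums, the fit over transcripts and the motif GAAANNGAA were added after the data were seen. By rule the text gives by library Psmb5, Psmb6, Psmb7, Psme1, Psme2, Psme3 and Psme4, the called genes of each class, up to 3 largest rises and falls, or else its gene with the smallest p. Psmb11 was not analysed here. Alternatives were scalings, filters, pseudocount 0.1, r1 or r2 alone, the top transcript, other priors and designs, and subsets of libraries.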

Additional observations from a re-analysis of the deposited data

How the results depend on the processing

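Depth is unknown, there are 2 WT libraries, and every count against WT rests on them. In mdx against WT the 4 called proteasome genes became 10 in the group-only fit without the removed term, 1 with name style as a further term, with r2 alone or with only the 2 groups compared, and 0 with plain-named libraries alone or without the low Y-linked libraries. All genes called (2080) became 3798, 559 with name style, 545 with the 2 groups, 122 with plain-named libraries and 126 without the low Y-linked ones. Against WT in mdx sln+/- the 6 became 16 in the group-only fit, 1 with name style, 3 with median-ratio scaling, r1 alone, r2 alone or a prior without the trend, and 0 with plain-named libraries or without the low Y-linked ones. All genes called (2193) became 3996, 711 with name style, 333 with plain-named libraries and 39 without the low Y-linked ones. Leaving out 1 library each gave 1 to 4 proteasome genes and 579 to 1819 genes in mdx against WT, and 0 to 8 and 316 to 2410 in mdx sln+/- against WT. Between mdx sln+/- and mdx all alternatives gave 0. The cause of these moves was not tested. Against WT, with only the 2 groups compared, the term marks mdx 2 or mdx sln+/- 2 alone, and that library has no weight in the estimate. Such a fit sets 2 libraries of an mdx group against the 2 WT libraries. Leaving out mdx 2 or mdx sln+/- 2 likewise takes both from the estimates.

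Whether replicate numbers pair the libraries cannot be told from these values. Correlations of deviations between mdx sln+/- and mdx were -0.26 and -0.31 for numbers 1 and 3. The removed term sets that of number 2 and also ties the deviations of numbers 1 and 3 between these groups. With a replicate block 4 and 5 proteasome genes and 2397 and 2363 genes were called against WT in mdx and in mdx sln+/-, and 0 between mdx sln+/- and mdx. Of 1196 values of 25 named genes under alternatives, 949 kept their direction and their side of the threshold, 210 lost a call, 19 gained one and 18 turned. Summed with its copy Psmb5 turned to 0.08 in mdx and 0.11 in mdx sln+/- against WT, a choice made after seeing the data. For mdx against WT Psmb7 became -0.01 without WT 2 and -0.01 without the low Y-linked libraries, and Psme2 -0.10 in its top transcript. Psmc3ip became 0.21 without the low Y-linked libraries and ran from -0.44 (without WT 1) to 0.22 (without WT 2) with 1 library left out in mdx against WT; against WT in mdx sln+/- it became -0.21 with r1 alone and ran from -0.14 (without WT 1) to 0.52 (without WT 2). Psme3, near 0 throughout, became -0.01 with median-ratio scaling, r2 alone or without mdx 3 and -0.05 without WT 2 or the low Y-linked libraries in mdx against WT, and 0.00 with name style, 0.01 with r1 alone and -0.08 (without WT 2) to 0.05 (without WT 1) in mdx sln+/- against WT.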

Other observations

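Ubiquitin ligases of muscle, of which 8 were measured, had 1 called gene against WT in each mdx group. That is 12.5%, where 15.1% of all genes were called in mdx and 15.9% in mdx sln+/-. Asb2, a cullin-based ligase subunit of striated muscle, was at 8.73, 8.77 and 8.80 in mdx sln+/- 1, 2 and 3 and 8.87, 8.82 and 8.73 in mdx 1, 2 and 3, against 8.34 and 7.97 in WT 1 and 2. It rose by 0.65 ± 0.12 in mdx against WT (limma, adjusted p = 0.0155), a call lost without mdx 1 (adjusted p = 0.0537; 0.0039 to 0.23 over all alternatives), and by 0.61 in mdx sln+/- against WT (adjusted p = 0.0177), a call lost without WT 2, mdx sln+/- 1 or mdx sln+/- 3. The atrophy ligases Fbxo32 and Trim63 were not called. Fbxo32 was at 7.31, 7.55 and 7.46 in mdx sln+/- 1, 2 and 3, above 7.05, 6.90 and 7.07 in mdx 1, 2 and 3 and 7.24 and 6.98 in WT 1 and 2. It was 0.43 ± 0.10 higher in mdx sln+/- than in mdx (adjusted p = 0.578).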
